A study of Homo sapiens with 9 samples.

Results

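The comparison of THP-1 cells given the NFATC2 shRNA named shRNA-146 with cells given a control shRNA is described here across all genes. The groups compared hold 6 of the 9 libraries of the series, 3 of each group, chosen by their titles. Genes were tested on raw counts with the replicate number as a pairing. The other 3 libraries entered the same fit, where they added to the estimates of spread and of replicate effects. The line is of human acute myeloid leukaemia origin, has monocytic features and carries the MLL-AF9 fusion. Cells of every group were spinoculated, that is spun together with virus supernatant, using lentivirus made in 293T cells. They were put under puromycin from 24 hours and harvested for RNA at 48 hours. The control group carried a non-targeting shRNA and the 3 remaining libraries carried another NFATC2 construct, shRNA-143. All 9 libraries were made from polyadenylated RNA of a single cell line under acute knockdown, so the controls share the viral transduction and the selection. The replicates are described as biological, but no source used here ties them to separate cultures, so the p-values reflect only how these libraries vary, which may be technical variation.

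NFATC2 is a member of the nuclear factor of activated T cells family. A rise in cytoplasmic calcium, sustained by STIM sensors and plasma membrane channels, activates the phosphatase calcineurin. Calcineurin removes phosphate from NFAT proteins, which then enter the nucleus and bind DNA at sites with a GGAAAA core, often beside AP-1. The pathway is best known from cytokine induction in T cells and is also active in myeloid cells. Fusions of KMT2A such as MLL-AF9 maintain a HOXA9 and MEIS1 programme in leukaemia cells.

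Library totals ran from 40047459 to 44669709 counts over the series, and scaling factors from 0.897 to 1.14. Mitochondrially encoded genes held 4.39% to 5.98% of the counts of these 6 libraries. The first principal component of all 9 libraries held 58.1% of the variance and placed replicate 1 of each group apart, at scores of 53.6 to 85.7 against -53.8 to 2.47 for all others. Replicate 1 libraries therefore stood apart in every group, and some results are also given without them. Of 10 monocytic and myeloid markers, all had counts and CD68 alone stayed under 1 CPM (read counts scaled to library size and TMM factor) in each of the 6 libraries. Their summed level was 834 to 872 CPM in control and 806 to 955 CPM with shRNA-146. Of 8 T cell markers, 6 had no count in any of the 6 libraries and the sum never passed 0.754 CPM. Erythroid markers summed to at most 1.59 CPM, megakaryocyte markers to at most 4.47 CPM and fibroblast markers to at most 3.13 CPM. B cell markers summed to 25.2 to 31.1 CPM in control and 25.8 to 45.9 CPM with shRNA-146, most of it CD79B, while MS4A1 had no count. Epithelial and kidney-derived markers were listed for the 293T cells that made the virus. They summed to 4.04 to 4.92 CPM in control and 2.44 to 2.93 CPM with shRNA-146, most of it KRT8. KRT8 stood at 3.87 to 4.82 CPM in control and at most 2.695 CPM with shRNA-146. The next highest of these markers in any of the 6 libraries, LHX1, reached 0.307 CPM. The part of 293T cells in the results was not tested. In bulk RNA, fewer cells of a type and less RNA per cell cannot be told apart.

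The targeted gene was lower in every shRNA-146 library. NFATC2 (ENSG00000101096, chr20:51386957-51562831 on the minus strand of hg38) stood at 12.7, 27.6 and 27.4 CPM in control replicates 1, 2 and 3 and at 2.59, 6.71 and 9.43 CPM in shRNA-146 replicates 1, 2 and 3. The groups did not overlap, although the control of replicate 1 lay well below its 2 partners. Within pairs of libraries that share a number, the level with shRNA-146 was 20.5%, 24.3% and 34.4% of control. NFATC2 fell with a log2 fold change of -1.96 ± 0.23 (SE, adjusted p = 0.00435, edgeR's quasi-likelihood test with Benjamini-Hochberg adjustment over 14975 genes). Without the pairing the change was -1.85 and did not pass (adjusted p = 0.464). Without replicate 1 of all groups it was -1.78.

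The remaining members of the family did not pass the test. Per kilobase of the deposited gene length, NFATC2 averaged 2.72 CPM in control and 0.753 CPM with shRNA-146. On the same scale NFATC1 averaged 1.36 and 1.82, NFATC3 1.41 and 1.85, NFATC4 0.215 and 0.187, and NFAT5 0.244 and 0.362 CPM per kilobase. NFATC2 was therefore the most abundant of the 5 per length in control and lay below NFATC3 and NFATC1 with shRNA-146. The log2 fold changes were 0.32 ± 0.20 for NFATC1, 0.40 ± 0.14 for NFATC3, -0.30 ± 0.33 for NFATC4 and 0.59 ± 0.26 for NFAT5, with adjusted p between 0.124 and 0.636.

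**Figure D1:**
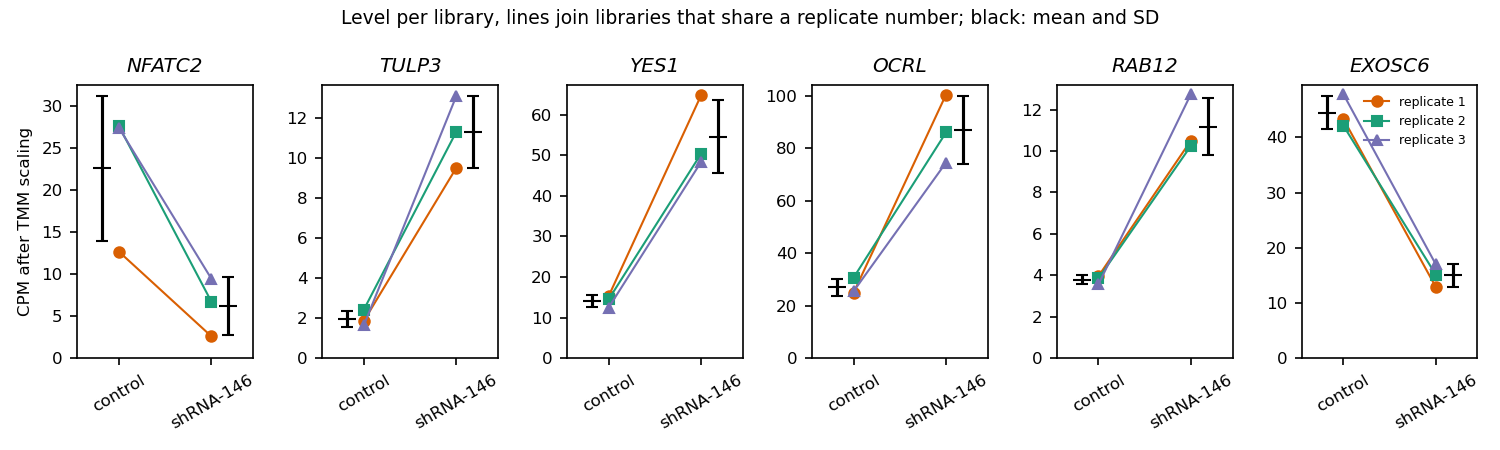
CPM after TMM scaling in each library for NFATC2 and the 5 genes that passed with and without the pairing; lines join libraries that share a replicate number, and black marks show the mean and SD of 3 libraries. In all 6 panels the control and shRNA-146 libraries do not overlap, with NFATC2 and EXOSC6 lower and TULP3, YES1, OCRL and RAB12 higher with shRNA-146.

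In the whole transcriptome, 662 of 14975 tested genes changed with shRNA-146 (4.42%), 369 of them higher (2.46%) and 293 lower (1.96%). All 662 moved in the same direction in each of the 3 pairs, and 6190 of all 14975 tested genes did so. The 662 were chosen by a test on these same pairs, so their shared direction is no independent support. In 497 of the 662 the libraries of the groups did not overlap. Over all tested genes, 1085 had every shRNA-146 library above every control library (7.25%) and 1117 every one below (7.46%). The changes were moderate, with a median absolute log2 fold change of 0.80 among the called genes, and 181 of them differed at least 2-fold. The pairing decided the count: without the replicate number in the fit 5 genes passed, 4 higher and 1 lower. Those 5 were TULP3, YES1, OCRL, RAB12 and EXOSC6, and 1319 genes had an unadjusted p under 0.05 in that fit. With the 6 libraries of these groups alone and the pairing, 217 genes passed. Single libraries moved the count as well. It was 140, 27 and 89 without control replicates 1, 2 and 3. Without shRNA-143 replicates 1, 2 and 3, which lend their spread to the fit, it was 563, 228 and 307. Without shRNA-146 replicates 1, 2 and 3 it was 1745, 270 and 329. Without replicate 1 of all groups 2111 genes passed, of which 645 were among the 662. The split between directions moved with the scaling: 55.7% of called genes were higher with TMM against 81.3% with library totals alone, a scaling that moved the median log2 fold change of all genes from 0.02 to 0.16.

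**Figure D2:**
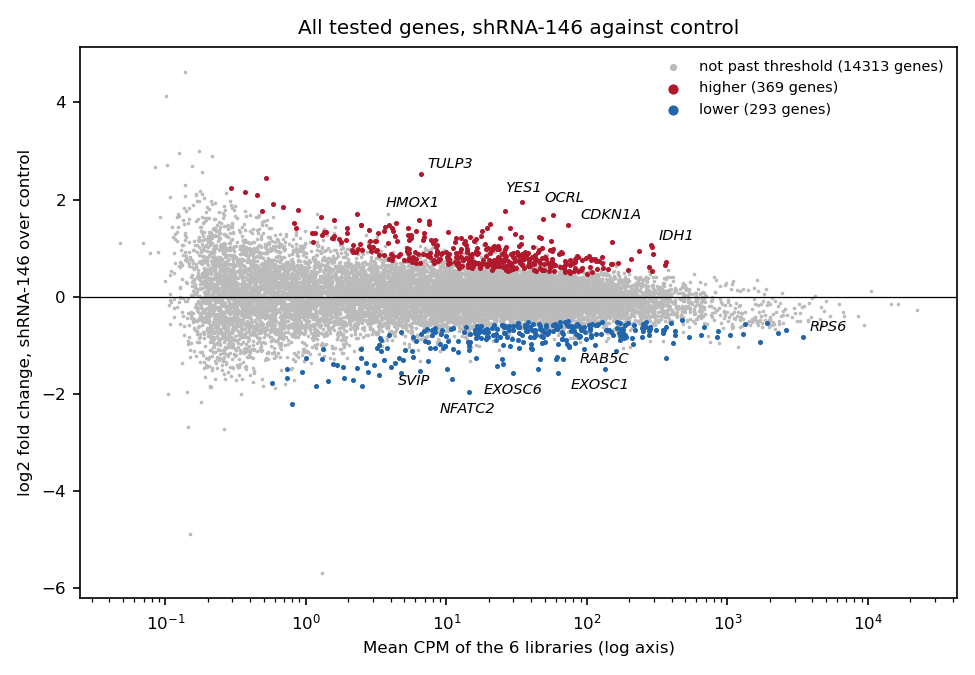
Log2 fold change of shRNA-146 over control against the mean CPM of the 6 libraries on a log axis, 1 point per tested gene, with 369 higher genes in red, 293 lower genes in blue and the rest in grey. NFATC2 lies among the largest falls and TULP3 is the largest rise among called protein-coding genes of at least 1 CPM in either group, while abundant genes such as RPS6 have smaller changes.

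The kinds of genes called were uneven. Protein-coding genes made up 12598 of the tested genes and gave 367 rises and 269 falls (5.05% called). Of 1522 long non-coding genes 1 rose and 11 fell (0.788% called), and of 804 pseudogenes 1 rose and 12 fell (1.62% called). The authors' deposited table for this comparison lists 23854 genes, with an adjusted p under 0.05 for 60 of them, 36 higher and 24 lower. All 60 were also called here in the same direction. Of the 662 genes, 279 have exons that overlap another annotated gene, and since the sources used here do not give strand use in counting, their counts are uncertain. Named examples with protein-coding partners are HSH2D with RAB8A, TMEM64 with NECAB1, C5orf24 with DDX46, SERPINB10 with SERPINB2 and MRPL13 with MTBP.

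Changes moved with gene length. In 5 equal bins of the tested genes, with median deposited lengths of 1426, 3050, 4550.5, 6441.5 and 10036 bases, the median log2 fold change was -0.22, -0.09, 0.01, 0.10 and 0.21. The order from short to long genes was the same in each of the 3 pairs. Rises numbered 12, 41, 79, 111 and 126 from the shortest to the longest bin, and falls 105, 77, 56, 31 and 24. Genes that rose had a median length of 6298 bases, genes that fell 2967 bases and all tested genes 4550 bases. With a correction of each library for gene length 491 genes passed, 280 higher and 211 lower, of which 422 were among the 662. Genes named in the text that passed without this correction and not with it include ATP2A2, VIM, CPEB3, LMLN, TMEM238, RPL19, PPP1R27, RPL41P2, RPL9P7, RPL24P8, SERPINB10, STIM2, ZEB2, KLF6, DEFA4, ITGAX, SIGLEC1, NCF4, XAF1, IRF1, NFKBIZ, TRIM71, AURKA, BIK, NPC1, RAB28 and TOMM7. The naming is not complete: further members of the endosome and interferon lists named below lost their calls too. With library size scaling TMEM64, TMEM238, RPS25, RPL41P2, RPL24P8, ITGAX, NCF4, NFKBIZ, CHAF1B, AURKA, BIK, TIMM17B and TOMM7 lost their calls. All of them kept their direction in both settings.

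**Figure D3:**
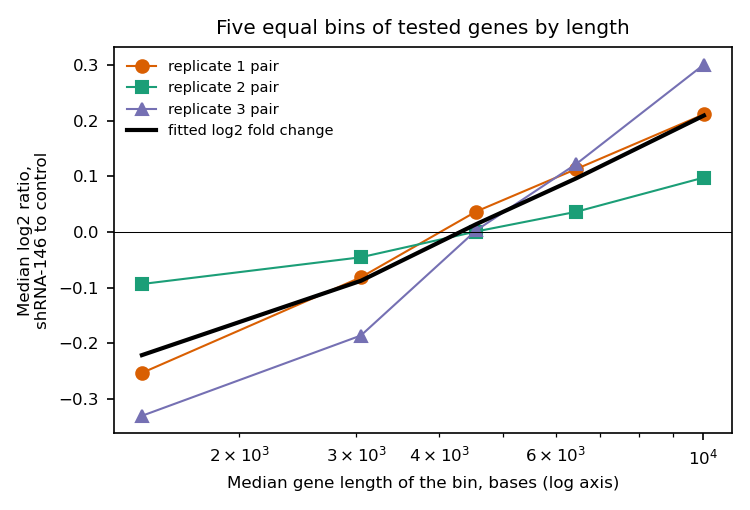
Median log2 ratio of shRNA-146 to control in 5 equal bins of tested genes, against the median gene length of the bin on a log axis; coloured lines are the 3 pairs and the black line is the fitted value. All lines climb from the shortest to the longest bin, and the black line runs from -0.22 to 0.21.

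Of the 5 genes that passed with and without the pairing, 4 rose. TULP3, a tubby-family protein that brings membrane receptors into primary cilia, stood at 1.86, 2.42 and 1.63 CPM in control replicates 1 to 3 and 9.52, 11.3 and 13.1 CPM with shRNA-146, a log2 fold change of 2.52 ± 0.21 (adjusted p = 0.000713). YES1, a SRC-family tyrosine kinase, stood at 15.3, 14.5 and 12.5 CPM in control and 64.8, 50.4 and 48.4 CPM with shRNA-146, a log2 fold change of 1.95 ± 0.15. Every shRNA-146 library of both genes lay several times above the highest control library. OCRL, an endosomal phosphatase that removes a phosphate from phosphatidylinositol bisphosphate, stood at 24.9, 30.6 and 25.5 CPM in control and 100.4, 85.99 and 74.5 CPM with shRNA-146. RAB12, a small GTPase of recycling endosomes, stood at 3.96, 3.85 and 3.57 CPM in control and 10.5, 10.3 and 12.8 CPM with shRNA-146. Their log2 fold changes were 1.69 ± 0.15 and 1.55 ± 0.17, and neither gene's groups overlapped. The gene that fell was EXOSC6, a subunit of the ring of the RNA exosome, which degrades and trims RNA from its 3′ end. EXOSC6 stood at 43.4, 42.1 and 47.8 CPM in control and 12.9, 15.1 and 16.98 CPM with shRNA-146, a log2 fold change of -1.58 ± 0.14 (adjusted p = 0.000713). Exons of TULP3 overlap RHNO1, those of YES1 overlap AP001020.3 and those of RAB12 overlap AP001793.1, so their counts are less certain than those of OCRL and EXOSC6.

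The sequences before the start sites of these genes are shown because NFAT proteins bind a GGAAAA core. RefSeq windows of GRCh38.p14, from 250 bases before to 50 after a gene's start, were searched for GGAAAA on both strands, and 4 of the 5 genes were in the table, RAB12 not being matched. The 250 bases before each start follow, 5′ to 3′ on the gene's strand, with a match in capitals. They lie at chr12:2890641-2890890 on the plus strand for TULP3, chr18:812243-812492 on the minus strand for YES1, chrX:129540009-129540258 on the plus strand for OCRL and chr16:70251941-70252190 on the minus strand for EXOSC6.
TULP3: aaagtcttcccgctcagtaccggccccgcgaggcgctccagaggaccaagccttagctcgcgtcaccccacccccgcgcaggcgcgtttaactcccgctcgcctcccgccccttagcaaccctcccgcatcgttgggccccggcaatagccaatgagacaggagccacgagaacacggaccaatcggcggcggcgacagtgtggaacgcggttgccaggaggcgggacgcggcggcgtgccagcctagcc
YES1: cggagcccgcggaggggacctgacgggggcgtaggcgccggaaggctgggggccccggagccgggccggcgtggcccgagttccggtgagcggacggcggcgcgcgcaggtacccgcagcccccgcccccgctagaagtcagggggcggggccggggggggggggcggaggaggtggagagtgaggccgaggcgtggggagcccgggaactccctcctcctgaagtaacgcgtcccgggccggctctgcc
OCRL: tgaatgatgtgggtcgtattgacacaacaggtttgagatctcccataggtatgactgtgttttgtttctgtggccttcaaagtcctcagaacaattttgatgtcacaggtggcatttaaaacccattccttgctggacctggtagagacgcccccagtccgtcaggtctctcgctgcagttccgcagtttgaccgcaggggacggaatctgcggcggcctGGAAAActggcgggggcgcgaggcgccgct
EXOSC6: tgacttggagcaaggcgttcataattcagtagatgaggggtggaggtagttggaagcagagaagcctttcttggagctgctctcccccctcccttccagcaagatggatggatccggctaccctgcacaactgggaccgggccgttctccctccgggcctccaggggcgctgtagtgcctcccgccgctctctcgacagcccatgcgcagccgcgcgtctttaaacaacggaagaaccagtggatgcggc
OCRL has 1 match, which begins 30 bases before the start, and the windows of TULP3, YES1 and EXOSC6 have none. A match was present for 61 of 303 matched genes that rose (20.1%), for 47 of 228 that fell (20.6%) and for 2088 of 10372 that were not called (20.1%). Over all 35116 windows of the table the share was 24.0%. The letters were thus about as frequent before called genes as before the rest, and a match is not evidence of a bound site.

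The remaining largest rises among called protein-coding genes of at least 1 CPM in either group were mostly at low CPM. AHNAK, a very large scaffold protein of the cell cortex, stood at 8.21, 14.97 and 8.899 CPM in control and 15.4, 50.3 and 58.9 CPM with shRNA-146 (1.77 ± 0.28 on the log2 scale). ICAM1, an adhesion receptor for leukocyte integrins, stood at 0.727, 1.88 and 0.735 CPM in control and 2.01, 4.68 and 3.85 CPM with shRNA-146 (1.71 ± 0.31). In both genes all shRNA-146 libraries lay above all control libraries, and replicate 3 had the largest ratio. HMOX1, the haem-degrading oxygenase, stood at 3.31, 3.33 and 2.64 CPM in control and 5.79, 16.04 and 7.28 CPM with shRNA-146, with shRNA-146 replicate 2 far above its partners (1.58 ± 0.35, adjusted p = 0.0359). RABL6, a RAB-like GTPase, stood at 12.6, 26.6 and 22.6 CPM in control and 16.3, 91.9 and 122 CPM with shRNA-146 and its groups overlapped, because replicate 1 with shRNA-146 lay below controls 2 and 3 (1.60 ± 0.31). CD248, EDNRB, CD209 and PTK2, which encode endosialin, an endothelin receptor, the lectin DC-SIGN and focal adhesion kinase, rose by 1.85, 1.78, 1.63 and 1.59 on the log2 scale without overlap, from control levels of 0.135 to 1.16 CPM.

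Among called protein-coding genes of at least 1 CPM in either group, NFATC2 had the second largest fall by log2 fold change. TMEM64, a membrane protein, had a larger estimate (-2.21 ± 0.54) but stood at 1.94, 0.974 and 0.816 CPM in control and 0.888, 0.0205 and 0.125 CPM with shRNA-146, and its groups overlapped. CALHM6, a calcium homeostasis modulator family member, stood at 5.06, 2.49 and 4.38 CPM in control and 1.02, 1.25 and 0.878 CPM with shRNA-146 (-1.84 ± 0.30). KLF15, a Krüppel-like transcription factor, stood at 3.82, 2.57 and 3.59 CPM in control and 1.09, 1.03 and 0.899 CPM with shRNA-146 (-1.70 ± 0.24). The groups of CALHM6 and KLF15 did not overlap, at low levels in both. SVIP, a small inhibitor of the VCP-linked degradation of endoplasmic reticulum proteins, stood at 18.1, 13.9 and 18.04 CPM in control and 7.08, 5.29 and 3.62 CPM with shRNA-146 (-1.68 ± 0.20). EXOSC1, a cap subunit of the RNA exosome, stood at 107, 65.6 and 108 CPM in control and 41.3, 27.7 and 25.5 CPM with shRNA-146 (-1.56 ± 0.17, adjusted p = 0.003796). SEMA3A, a secreted guidance cue, and HSH2D, a haematopoietic SH2 adaptor, had log2 fold changes of -1.68 and -1.57. SH2D3A, another SH2 adaptor, RGL4, a Ral exchange factor relative, and TMEM238 had -1.73, -1.84 and -1.60. In these 5 genes every shRNA-146 library lay below every control library.

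The called protein-coding genes with the highest CPM in each direction are given next, 5 higher and 5 lower. IDH1, the cytosolic isocitrate dehydrogenase, stood at 231, 157 and 177 CPM in control and 543, 311 and 321 CPM with shRNA-146 (1.03 ± 0.13, adjusted p = 0.00456). ARPC3, a subunit of the actin-nucleating ARP2/3 complex, stood at 202, 169 and 222 CPM in control and 620.1, 299 and 256 CPM with shRNA-146 (0.88 ± 0.21), with replicate 1 rising most. COX7C, a cytochrome oxidase subunit, rose by 0.72, ATP2A2, the calcium pump of the endoplasmic reticulum, by 0.65 and VIM, the intermediate filament vimentin, by 0.52 on the log2 scale. RPS6, a protein of the small ribosomal subunit, stood at 4865, 3687 and 4675 CPM in control and 2982, 2329.9 and 2174 CPM with shRNA-146 (-0.82 ± 0.16). RPL19, RPS24 and RPS25 fell too (-0.68, -0.75 and -0.94), as did PPP1R27, a regulatory subunit of protein phosphatase (-0.55), whose high level was not checked against the reads. None of these 10 genes had overlapping groups. Among genes that do not code for protein, LINC01624 rose by 1.52 on the log2 scale from 0.323, 0.309 and 0.653 CPM in control. RPL41P2, RPL9P7 and RPL24P8, processed pseudogenes of ribosomal proteins whose reads cannot be told apart with certainty from those of their parent genes, fell (-1.68, -1.54 and -1.48), and so did AC016596.1 (-1.52).

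The gene lists that follow are read against the shares called over all tested genes, 2.46% higher and 1.96% lower. In the calcium and calcineurin pathway the called share was near those values. Of 38 tested pathway genes STIM2, a calcium sensor of the endoplasmic reticulum, rose and NFATC2, the knocked-down gene itself, fell (2.63% each), with a list median of 0.16 on the log2 scale against 0.02 for all genes. After the length correction that median was -0.00466, STIM2 did not pass (adjusted p = 0.0608) and 2 members fell, and the list's median length was 7608.5 bases. STIM2 stood at 10.4, 15.6 and 12.7 CPM in control and 18.6, 20.9 and 22.5 CPM with shRNA-146 (0.70 ± 0.16, adjusted p = 0.0399). PPP3CA, the catalytic subunit of calcineurin, stood at 52.5, 55.6 and 61.2 CPM in control and 88.2, 70.9 and 74.6 CPM with shRNA-146, without overlap but not past the threshold (0.47 ± 0.15, adjusted p = 0.0988). RCAN1, a calcineurin inhibitor whose transcription NFAT is known to drive, stood at 31.2, 28.01 and 30.8 CPM in control and 36.7, 26.1 and 26.2 CPM with shRNA-146 (-0.04 ± 0.14, adjusted p = 0.9102). Of 26 classical NFAT targets, mostly T cell cytokines and surface proteins, 9 were expressed enough to test. None passed with edgeR, DESeq2 or limma-voom, and 1 had an unadjusted p under 0.05. Their median log2 fold change was 0.37, with 7 genes above 0 and 2 below. By pair the median was -0.07, 0.32 and 0.21.

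Of 32 tested KMT2A fusion targets, ZEB2, a zinc finger repressor, and CPEB2, a translational regulator, rose (0.79 ± 0.16 and 0.85 ± 0.15, 6.25% of the list) and none fell, with a median of 0.15. HOXA9 stood at 25.04, 19.8 and 25.8 CPM in control and 33.7, 26.5 and 26.4 CPM with shRNA-146 (0.29 ± 0.14), MEIS1 at 7.14, 7.58 and 9.23 CPM in control and 7.03, 6.54 and 7.74 CPM with shRNA-146 (-0.16 ± 0.16), with adjusted p of 0.2502 and 0.594. HOXA9 was above control in each library and MEIS1 overlapped. Among myeloid transcription factors KLF2 and KLF6 rose (1.14 ± 0.23 and 0.68 ± 0.15) and CEBPE fell. CEBPE, a factor of late granulocyte development, stood at 31.2, 33.9 and 33.2 CPM in control and 6.22, 20.3 and 12.7 CPM with shRNA-146 (-1.43 ± 0.27), without overlap. CEBPA stood at 213, 262 and 212 CPM in control and 68.7, 284 and 267 CPM with shRNA-146 and SPI1, which encodes PU.1, at 145.8, 247 and 247 CPM in control and 89.3, 285 and 318 CPM with shRNA-146. In both, replicate 1 with shRNA-146 was the lowest of the 6 libraries and the other shRNA-146 libraries lay above all controls, and neither gene passed (-0.29 ± 0.33 and -0.01 ± 0.20). MYC, LMO2 and IRF8 did not pass either (-0.17 ± 0.12, 0.13 ± 0.13 and 0.04 ± 0.12).

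Called changes among granule genes were falls. Those among macrophage genes went both ways, though the median of that list was positive. Of 19 granule and promyelocyte genes CEBPE, DEFA4 and MPO fell (15.8%) and none rose, with a median of -0.41. MPO, myeloperoxidase, stood at 38.1, 61.3 and 86.9 CPM in control and 22.2, 30.5 and 54.5 CPM with shRNA-146 (-0.82 ± 0.13, adjusted p = 0.0107). DEFA4, a defensin, stood at 50.4, 30.5 and 57.8 CPM in control and 31.2, 17.4 and 23.4 CPM with shRNA-146 (-0.93 ± 0.16). Both overlapped between groups and were lower in each pair. Granule genes had a median length of 1222 bases, and after the length correction 2 fell and the median was -0.21. Of 36 monocyte and macrophage genes, ITGAX, the integrin CD11c, and SIGLEC1, a sialic acid receptor, rose (1.37 ± 0.34 and 1.30 ± 0.29) and NCF4, a subunit of the phagocyte oxidase, fell (-0.62 ± 0.14). These are 5.56% higher and 2.78% lower. The median of the list was 0.31, with 24 genes above 0 and 12 below. By pair it was 0.15, 0.17 and 0.27, and after the length correction 0.37. Without replicate 1 of all groups 9 of the list rose and 2 fell. ITGAX stood at 1.89, 1.43 and 1.28 CPM in control and 2.31, 3.92 and 5.98 CPM with shRNA-146, SIGLEC1 at 1.51, 2.16 and 1.69 CPM and 2.39, 4.14 and 7.82 CPM, and neither gene's groups overlapped. After the length correction neither ITGAX, SIGLEC1 nor NCF4 passed. CD14, CSF1R and ITGAM did not pass, with log2 fold changes of 0.33 ± 0.32, 0.57 ± 0.14 (adjusted p = 0.0503) and 0.68 ± 0.23.

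Some interferon-stimulated genes rose and none fell. Of 52 tested, 8 rose (CMPK2, GBP3, HERC5, IFIH1, IRF1, OAS3, SAMD9L and XAF1), which is 15.4% against 2.46% over all tested genes, and the median of the list was 0.31 on the log2 scale. The list's median was positive in each pair (0.35, 0.39 and 0.44), and 5 rose after the length correction. Without replicate 1 of all groups 17 of the list rose and 2 fell. GBP3, a guanylate-binding protein, stood at 3.15, 3.52 and 3.13 CPM in control and 8.43, 7.81 and 7.44 CPM with shRNA-146 (1.28 ± 0.19, adjusted p = 0.00764). SAMD9L, an antiviral factor, stood at 1.86, 2.83 and 3.05 CPM in control and 4.52, 6.46 and 7.297 CPM with shRNA-146 (1.25 ± 0.21), and the transcription factor IRF1 at 21.6, 22.05 and 21.99 CPM in control and 27.2, 38.8 and 41.8 CPM with shRNA-146 (0.69 ± 0.15). None of these 3 overlapped between groups. Defining members did not pass: ISG15 stood at 26.8, 14.2 and 26.4 CPM in control and 17.2, 14.7 and 15.6 CPM with shRNA-146 (-0.45 ± 0.20) and IFIT1 at 2.42, 2.64 and 3.701 CPM in control and 2.46, 4.04 and 3.93 CPM with shRNA-146 (0.24 ± 0.22). Of 38 NF-kB and inflammatory genes, BIRC3, ICAM1, NFKBIZ and TLR2 rose (2.16, 1.71, 1.16 and 0.70), which is 10.5% of the list, none fell and the median was 0.21. BIRC3, an inhibitor of apoptosis, stayed under 1 CPM in every library. NFKBIA, a direct NF-kB target, stood at 48.4, 42.4 and 45.1 CPM in control and 43.5, 51.7 and 35.5 CPM with shRNA-146 and did not pass. Among AP-1 and immediate early factors FOS rose by 0.91 ± 0.22 and JUN did not pass (0.50 ± 0.32).

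Some inhibitors of cyclin-dependent kinases rose. Of 20 tested CDK inhibitors and D cyclins CDKN1A, BTG2 and CDKN1B rose (15%) and none fell, with a list median of 0.11. CDKN1A, which encodes p21, stood at 49.4, 37.5 and 32.03 CPM in control and 90.3, 120.3 and 108 CPM with shRNA-146 (1.47 ± 0.22, adjusted p = 0.00764). BTG2, an antiproliferative gene, stood at 2.24, 1.97 and 1.93 CPM in control and 5.18, 5.15 and 5.19 CPM with shRNA-146 (1.35 ± 0.22), and CDKN1B, which encodes p27, at 44.7, 27.9 and 29.96 CPM in control and 71.9, 47.4 and 51.7 CPM with shRNA-146 (0.75 ± 0.12). All 3 kept their groups apart, and all 3 also passed after the length correction. Of 32 p53 targets, CDKN1A and BTG2 alone passed (6.25%), and the median of the list was 0.09. Of 51 replication and G1/S genes CCNE2 rose (0.82) and CHAF1B, a chromatin assembly factor, fell (-0.68), 1.96% each and so near the shares over all genes. Of 57 mitosis genes AURKA, a spindle kinase, fell from 158, 163 and 135 CPM to 109.9, 109 and 97.7 CPM (-0.53 ± 0.12) and none rose, a share of 1.75%. Of 21 BCL2 family genes BIK, a death-promoting member, fell (-0.55 ± 0.13), a share of 4.76%. The calls of AURKA and BIK were lost both with the length correction (adjusted p of 0.0837 and 0.214) and with library size scaling (0.0696 and 0.0876).

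Among genes of protein synthesis and of the mitochondrion nearly all changes were falls, and no ribosomal protein gene of either compartment rose. Of 84 tested cytosolic ribosomal protein genes 9 fell (10.7%), and 82 had a negative log2 fold change, with a median of -0.50. By pair the median was -0.36, -0.24 and -0.88, lowest in replicate 3. Of 78 mitochondrial ribosomal protein genes 12 fell (15.4%), with a median of -0.39. MRPL13, of the large subunit, stood at 109, 64.7 and 81.9 CPM in control and 58.3, 31.6 and 23.1 CPM with shRNA-146 (-1.24 ± 0.18). Of 78 nuclear-encoded oxidative phosphorylation genes 8 fell (10.3%), CYCS, which encodes cytochrome c, among them (-0.78 ± 0.13), and COX7C rose, with a median of -0.37. Of 37 mitochondrial import and chaperone genes DNAJC19, GRPEL1, TIMM17B and TOMM7 fell (10.8%) and none rose. GRPEL1, the exchange factor of mitochondrial HSP70, stood at 120.0, 89.8 and 93.2 CPM in control and 59.1, 45.6 and 42.8 CPM with shRNA-146 (-1.04 ± 0.12, adjusted p = 0.003796), without overlap.

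These lists hold short genes, with median lengths of 2992, 2539, 2545 and 3289 bases in the order given, and gene length moved with the result. After the length correction 8, 3, 3 and 3 members of the 4 lists fell, with medians of -0.40, -0.26, -0.28 and -0.18. With library size scaling 9, 4, 6 and 2 fell, and without replicate 1 of all groups 27, 36, 17 and 6. Many cytosolic ribosomal protein genes have processed pseudogenes that share reads with them, so single members are uncertain. None of the 13 mitochondrially encoded genes passed with edgeR (2 had an unadjusted p under 0.05), while DESeq2 called 1 lower and limma-voom none. Their median differed in sign between pairs (0.31, -0.32 and -0.68). Of 47 proteasome genes PSMG4 and PSMG3, assembly chaperones, fell (-0.96 and -0.72, 4.26%), and the median was -0.26. Of 59 MYC-driven ribosome assembly genes 5 fell, FBL, the methyltransferase fibrillarin, among them (-0.70 ± 0.14), which is 8.47%, and none rose. That count was 2 with the length correction, 2 with library size scaling and 11 without replicate 1 of all groups.

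**Figure D4:**
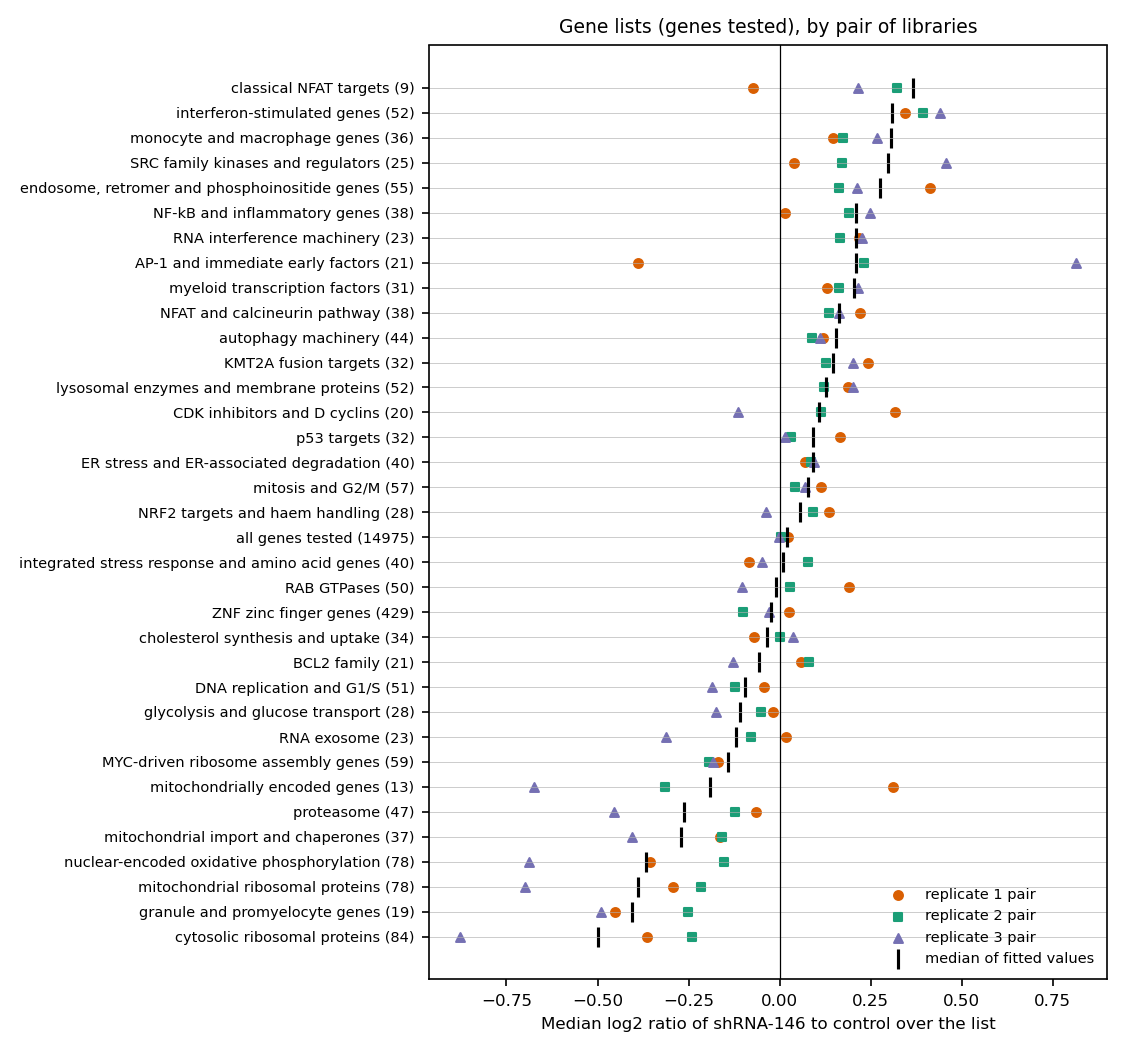
Median log2 ratio of shRNA-146 to control over the tested members of each gene list, with coloured points for the 3 pairs of libraries that share a replicate number and a black mark for the median of fitted values. The ribosomal, oxidative phosphorylation and granule lists lie at the low end with all 3 pairs below 0, the mitochondrially encoded genes have pairs on both sides of 0, and the interferon list lies near the high end with all 3 pairs above 0.

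Some genes of endosomal traffic rose. Of 55 tested endosome, retromer and phosphoinositide genes OCRL, SNX16, RUFY2, SYNJ1 and SNX13 rose (9.09%) and none fell, with a median of 0.28 and a median length of 6490 bases. SNX16, a sorting nexin, stood at 3.99, 3.94 and 3.67 CPM in control and 15.7, 9.33 and 8.86 CPM with shRNA-146 (1.49 ± 0.19). SYNJ1, a phosphoinositide phosphatase, stood at 7.94, 11.8 and 9.85 CPM in control and 18.2, 23.1 and 23.4 CPM with shRNA-146 (1.14 ± 0.15). The groups of both genes did not overlap, and 4 of the list rose after the length correction. INPP5B, the closest relative of OCRL, did not pass (0.29 ± 0.15). Of 50 RAB GTPases RABL6, RAB12 and RAB23 rose (1.60, 1.55 and 0.84) and RAB5C, RAB37 and RAB28 fell (-1.28, -0.92 and -0.73), 6% in each direction. RAB5C, a GTPase of early endosomes, stood at 115, 74.2 and 101 CPM in control and 34.1, 37.9 and 45.2 CPM with shRNA-146, without overlap. Among lysosomal genes LAPTM4A and NPC1 rose (0.90 and 0.63), and of 44 autophagy genes ATG9A and ATG16L1 rose (4.55%) and none fell. ATG9A, a lipid scramblase of the forming autophagosome, stood at 11.5, 20.4 and 14.8 CPM in control and 27.7, 47.4 and 48.4 CPM with shRNA-146 (1.41 ± 0.18).

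In the SRC kinase, RNA exosome and RNA interference lists the called shares in the directions named lay above those over all tested genes, on few genes each. Of 25 SRC family kinases and regulators YES1 and SLA, an adaptor, rose (8%) and HSH2D fell (4%), while SRC, LYN, FGR and CSK did not pass, with log2 fold changes of 0.60, 0.11, 0.26 and -0.00201. Of 23 RNA exosome genes EXOSC6 and EXOSC1 fell (8.70%) and none rose, and the catalytic subunits DIS3 and EXOSC10 did not pass (0.17 ± 0.15 and 0.15 ± 0.17). Of 23 RNA interference genes TNRC6A, LIN28B, AGO4 and TRIM71 rose (17.4%) and none fell. This list had a median length of 8685 bases and a median log2 fold change of 0.21. After the length correction that median was 0.000433 and 3 members rose. TNRC6A, the scaffold that links Argonaute to deadenylases, stood at 5.55, 14.3 and 11.2 CPM in control and 13.7, 32.9 and 38.8 CPM with shRNA-146 (1.42 ± 0.22). LIN28B, an inhibitor of let-7 maturation, stood at 79.7, 87 and 91.04 CPM in control and 186, 124 and 126 CPM with shRNA-146 (0.74 ± 0.16). LIN28B did not overlap between groups. TNRC6A did, its replicate 1 being the lowest library in each group. DICER1, DROSHA, XPO5 and AGO2 did not pass (0.44, 0.12, 0.16 and 0.42).

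Stress and metabolic lists differed in their called shares. Of 28 NRF2 targets and haem genes HMOX1, SLC7A11 and ME1 rose (10.7%) and none fell, while BACH1, the repressor of HMOX1, did not pass (-0.17 ± 0.15). SLC7A11, the cystine transporter, stood at 13.1, 19.3 and 12 CPM in control and 25.6, 49.6 and 20.8 CPM with shRNA-146 (1.04 ± 0.17). Of 40 integrated stress response genes SLC7A11, VLDLR and DDIT3 rose (7.5%) and none fell, and of 40 endoplasmic reticulum stress genes ERO1B rose and SVIP fell (2.5% each). Of 34 cholesterol genes ABCA1, SC5D and NPC1 rose (8.82%) and DHCR7 fell (2.94%). ABCA1, the exporter of cholesterol, stood at 11.6, 8.41 and 9.498 CPM in control and 31.01, 15.96 and 31.8 CPM with shRNA-146 (1.36 ± 0.21), and DHCR7, an enzyme of the last steps of synthesis, at 43.1, 28.6 and 32.3 CPM in control and 22.3, 17.9 and 17.9 CPM with shRNA-146 (-0.82 ± 0.14). Both kept the groups apart. None of 28 glycolysis genes passed with edgeR, where 7 had an unadjusted p under 0.05, while DESeq2 called 2 higher and 2 lower and limma-voom none. LDHA, lactate dehydrogenase A, had -0.23 ± 0.16. Of 429 ZNF zinc finger genes ZNF367 rose (0.233%) and 7 fell (1.63%), ZNF468 and ZNF100 most (-1.10 and -1.04), and the median was -0.02 (0.11 with library size scaling).

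How far these changes differed from those of shRNA-143 was tested in a direct contrast of the constructs, in which the control libraries enter only through the spread and replicate effects of the shared fit. Of 14975 genes 179 differed between the constructs (1.2%), 116 higher (0.775%) and 63 lower (0.421%) with shRNA-146. For NFATC2 itself the difference between the constructs did not pass (shRNA-146 minus shRNA-143 of 0.31 ± 0.23 on the log2 scale, adjusted p = 0.713). Against control, 474 genes passed with shRNA-143 (3.17%), in a comparison that shares the control libraries. For NFATC2 the log2 fold changes against control were -1.96 with shRNA-146 and -2.27 with shRNA-143. Of the 662 genes that changed with shRNA-146, 67 also differed from shRNA-143. With shRNA-146, 21 were higher and 45 lower than in both other groups, and FAM216A was lower than control but higher than with shRNA-143. The same shRNA-146 libraries enter both tests and the 662 were chosen on them, so this agreement in sign is no independent support. Without the pairing no gene passed both tests, although 132 of the 662 differed between the constructs at an unadjusted p under 0.05, and with the pairing DESeq2 gave 161 genes and limma-voom 70. Single libraries moved this count too. It was 27, 7 and 22 without control replicates 1, 2 and 3, it was 11, 11 and 15 without those of shRNA-143 and 190, 20 and 42 without those of shRNA-146. It was 178 without replicate 1 of all groups.

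The largest differences in the direction of the change are given with both constructs side by side. CPEB3, a regulator of translation, had log2 fold changes against control of 0.78 ± 0.18 with shRNA-146 and -1.12 ± 0.19 with shRNA-143 (adjusted p of the difference = 0.000935). NECAP1, a partner of clathrin adaptors, had 0.73 ± 0.14 and -1.13 ± 0.14 (adjusted p of the difference = 0.0001603), and the endothelial and macrophage factor KLF2 had 1.14 ± 0.23 and -0.40 ± 0.23. C5orf24 and LMLN, a metallopeptidase, rose by 0.75 and 0.95 with shRNA-146 against -0.44 and -0.16 with shRNA-143. Of the genes that fell, TMEM64 had -2.21 with shRNA-146 and 0.62 with shRNA-143, SEMA3A -1.68 and 0.20, and SVIP -1.68 and -0.29 on the log2 scale. BTBD3, a BTB domain protein, stood at 35.04, 25.1 and 24.2 CPM in control and 21.1, 17.1 and 11.6 CPM with shRNA-146 (-0.78 ± 0.14), against 0.61 ± 0.14 with shRNA-143. SERPINB10, a serpin of haematopoietic cells, had -1.06 ± 0.23 and 0.28 ± 0.22.

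Several list members described above also differed between the constructs. EXOSC1 (difference -1.29 ± 0.17, adjusted p = 0.004898) and RAB5C (-1.21 ± 0.17, adjusted p = 0.00648) were lower with shRNA-146. GRPEL1, MRPL13 and RAB37 were also lower (-0.73, -0.98 and -0.80), and CDKN1A (1.04 ± 0.22, adjusted p = 0.04998) and TRIM71 (0.65) were higher. LMO2, which did not pass against control with shRNA-146, was higher than with shRNA-143 (1.88 ± 0.13, adjusted p of the difference = 0.000129). Its log2 fold changes against control were 0.13 with shRNA-146 and -1.75 with shRNA-143. The 5 genes that passed without the pairing did not pass as different between the constructs. Their differences were 0.03 ± 0.19 for TULP3, 0.60 ± 0.14 for YES1, 0.38 ± 0.14 for OCRL, 0.47 ± 0.16 for RAB12 and -0.39 ± 0.13 for EXOSC6, with adjusted p from 0.0867 to 0.9695. Among other genes that differed, chosen after their values were seen, CTNNB1, which encodes beta-catenin, had a mean of 348 CPM in control and 202 CPM with shRNA-146 and log2 fold changes of -0.78 with shRNA-146 and 0.32 with shRNA-143. PLAUR, the urokinase receptor, had 0.52 and -0.46.

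**Figure D5:**
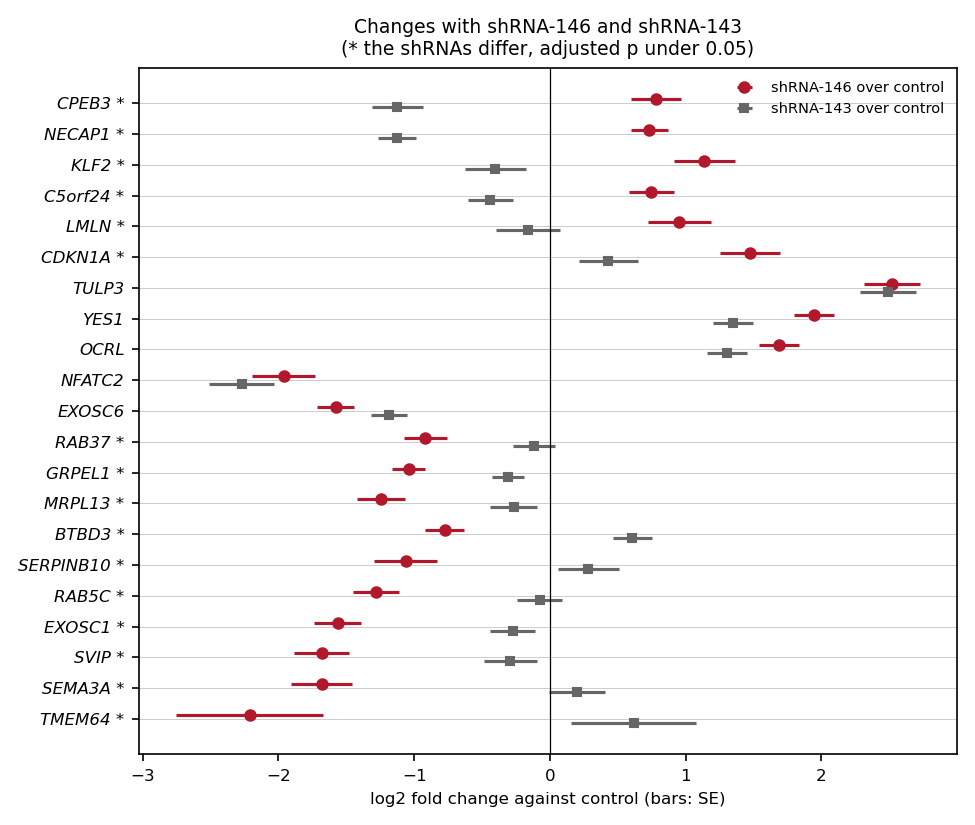
Log2 fold change against control with shRNA-146 (circles) and shRNA-143 (squares) for 21 genes, with bars of 1 SE; asterisks mark genes whose constructs differed at an adjusted p under 0.05. CPEB3 and NECAP1 lie on opposite sides of 0 for the constructs, while NFATC2, TULP3, YES1, OCRL and EXOSC6 lie on the same side and carry no asterisk.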

How the data were processed

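Raw counts per gene of 58735 Ensembl genes (GENCODE 29) were deposited by the authors for 9 libraries. Per the submitters' processing notes, hg38, fastp, STAR 2.5, featureCounts and DESeq2 were used, with no roles given. The log2 fold changes and p-values in the authors' deposited table are theirs, from a test that the file headers do not name. Its gene lengths and symbols were used.

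Genes were filtered with filterByExpr and scaled by TMM, and 14975 entered edgeR's robust quasi-likelihood test (version 4.0.16, R 4.3.3). All 9 libraries entered a single fit with group and replicate number (4 residual degrees of freedom). The Benjamini-Hochberg adjustment ran over all tested genes within each comparison, with a threshold of 0.05. SEs were derived from each fold change and its F statistic. The script was tested on simulated counts. Alternatives were DESeq2 1.42.0, limma-voom (limma 3.58.1), other scalings and filters, the 6 libraries alone, a length correction (a smooth curve of log2 ratio on gene length taken out of each library) and leaving out libraries.

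The labels give the replicate numbers and do not say what a number shares. Libraries were paired by these numbers, and how far the counts bear the pairing out was looked at beside that. Deviations from the group means correlated at 0.664, 0.539 and 0.252 between control and shRNA-146 libraries of numbers 1, 2 and 3. Control replicate 2 correlated at 0.520 with shRNA-146 replicate 3, so the pairing of numbers 2 and 3 is thin. Libraries of a group differed far beyond counting noise (chi-square per degree of freedom of 20.3 to 389).

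Named genes were NFATC2, the 12 protein-coding genes up and the 12 down with the largest change among called genes of at least 1 CPM in either group, the 5 most abundant in each direction, up to 4 not coding for protein, the 5 in each direction that differed most from shRNA-143, and from each list up to 4 called members in each direction plus preset key members. Members of a list called beyond those are named where a count of the list is spelled out. The comparison and the 34 gene lists were chosen with earlier results of these data known. Markers of 7 cell types were checked. The results of some list members are not reported here.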

Additional observations from a re-analysis of the deposited data

How the results depend on the processing

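The count of 662 called genes was 5 without the replicate block, 217 with the 6 libraries alone, 1400 with DESeq2 and 1653 without a low count filter, and it ranged from 27 to 2111 when libraries or replicate numbers were left out. The 67 that also differed from shRNA-143 were 0 without the block, 161 with DESeq2, 191 without the filter and 7 to 190 with libraries left out. NFATC2 fell in every setting, from -1.69 to -2.18 with libraries left out, and passed in all but the fit without the block (-1.85). All 662 genes kept their direction wherever they were tested, in each setting run. Each setting refits the counts on which the 662 were chosen, or a part of them, so this is no independent support. Leaving out a library takes residual degrees of freedom from a fit that has 4, and the cause of the other shifts was not tested. Of 122 called genes named, 5 passed without the block, 59 with the 6 libraries alone, 121 with DESeq2, 104 with library size scaling and 87 with the length correction.

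Genes under the threshold near 0 changed sign. Without the block SPI1 was 0.11 and CSK 0.018, with DESeq2 CSK was 0.0036 and with median-of-ratios scaling or a 1 CPM filter 0.0036 and 0.0022. With library size scaling RCAN1 was 0.10, SPI1 0.13, NFKBIA 0.067 and CSK 0.13, and with the length correction SPI1 0.17, NFKBIA 0.092, DIS3 -0.042 and DROSHA -0.014. With libraries left out the log2 fold changes ran from -0.018 to 0.10 for IRF8, -0.23 to 0.30 for SPI1, -0.12 to 0.11 for CSK, -0.17 to 0.064 for RCAN1, -0.23 to 0.070 for NFKBIA, -0.070 to 0.31 for EXOSC10, -0.57 to 0.10 for NFATC4, -0.65 to 0.23 for CEBPA and -0.017 to 0.28 for DIS3. Library size scaling turned the list medians of RNA exosome, replication, BCL2 family, cholesterol, RAB, glycolysis and ZNF genes positive, upper quartile scaling turned that of integrated stress genes negative, and the length correction turned those of NFAT pathway, RAB and mitochondrially encoded genes. Leaving out replicate 1 of all groups raised several list counts. In that setting 13 endosome genes rose, 11 proteasome genes fell, and 3 glycolysis genes rose and 3 fell. Of the ZNF genes 12 rose and 29 fell there. Depth limits the precision of genes under 1 CPM, such as BIRC3.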
